A study of Mus musculus with 4 samples.

Results

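Plasma cells of the mouse spleen that express Blimp1 at a high level (Blimp1-hi) were compared with naive follicular B cells, the resting cells from which antibody-secreting cells can arise. The comparison uses 2 of the 4 arrays in the study and takes, for each probe, the deposited log2 value on the Blimp1-hi array minus that on the naive array. All cells were sorted by flow cytometry, directly ex vivo and without treatment, from C57BL/6 mice whose genotype label is prmd1-gfp, a reporter in which green fluorescent protein is made from the locus of Blimp1. The naive cells were sorted as B220+ IgD+ follicular B cells. The Blimp1-hi cells were sorted as CD138+ cells with high reporter signal, and CD138+ cells with intermediate signal (Blimp1-int, 2 arrays) stand beside them here as levels only. Both plasma cell populations came from pools of 5 to 10 animals. Age and sex, and whether naive cells were pooled, are not given in the sources used here. The cell type field of the plasma cell arrays names follicular B cells, against their titles and sort description, which are followed here.

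Plasma cells are the end stage of the B cell lineage. Blimp1, a transcriptional repressor, shuts off genes that keep B cell identity, antigen presentation and receptor signalling, while Xbp1 drives the growth of the endoplasmic reticulum (ER), where antibody chains are made, folded and sent out. A naive follicular B cell instead keeps its antibody on the surface as a receptor, displays antigen to T cells on MHC class II, and recirculates through lymphoid organs at rest.

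With 1 array on each side, no difference has a replicate error of its own and no test was made. A gene counts as measured when its named probe exceeded background on at least 1 of the compared arrays, and is called higher or lower at a difference of at least 1 on the deposited log2 scale, which is 2-fold. Background was the mean plus 3 standard deviations of 45 probes for foreign sequences (bacterial, plant, spike-in and vector), 8.64 on the naive and 8.66 on the Blimp1-hi array. Where a gene lay below background on one side, its difference is given as a bound, "at least N-fold". The spread between the replicate Blimp1-int arrays serves as a yardstick: over the same genes their difference had an SD of 0.14, against 0.75 for Blimp1-hi minus naive. It covers those arrays alone, and how far separate naive or Blimp1-hi samples would vary is not known.

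The sort labels were first set against the probes. The eGFP probe stood at 8.29 on the naive array, 11.23 on Blimp1-hi, and 10.55 and 10.82 on Blimp1-int, a difference of at least 6.04-fold between the compared arrays. Another probe, labelled GFP, lay below background on every array and did not show this, with a difference of -0.15 between the compared arrays. Sdc1, the gene of CD138, stood at 8.24 on the naive array, 9.55 on Blimp1-hi, and 9.21 and 9.36 on Blimp1-int. By this probe the plasma cell arrays all lay above background and the naive array below it. A further Sdc1 probe lay below background on every array (7.92 naive, 8.31 Blimp1-hi), as did a further Bhlha15 probe (8.48 and 8.45). All 6 measured plasma cell markers (Bhlha15, Jchain, Sdc1, Tent5c, Txndc5, Xbp1) were called higher, Sdc1 with a bound of at least 1.89-fold. Only 2 of them exceeded background on the naive array. The others counted as measured through Blimp1-hi alone and could not be called lower. Of 7 measured follicular B cell markers, 6 were called lower, namely Cd72, Cd74, Fcer2a, Fcrl1, H2-Ab1 and Spib. Of the 7, 3 exceeded background on Blimp1-hi, and the others could not be called higher. Named probes cover 4 of 21 T and NK cell markers and 8 of 19 granulocyte markers, and none of these exceeded background on either compared array. The macrophage marker Apoe (9.22 naive, 9.91 Blimp1-hi, 1 of 8 named markers measured), the dendritic cell marker Cst3 (12.01 and 12.88, 1 of 4), the endothelial marker Pecam1 (9.66 and 8.8, 1 of 9 stromal and endothelial markers) and the erythroid gene Hba-a1 (1 of 5 erythroid and platelet markers) were not called. Without the immunoglobulin probes, a scaling described below, the difference of Cst3 was 1.42, past 2-fold, and the other 3 stayed uncalled. The log2 of the summed level of all named macrophage markers went from 11.47 to 11.65, and that of dendritic cell markers from 12.31 to 13.06. The part of such cells in the results below was not tested. In bulk sorted samples fewer cells of a type and less RNA per cell cannot be told apart.

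Of 2499 measured genes, 115 (4.6%) were called higher and 203 (8.12%) lower, together 12.7%. Between the Blimp1-int replicates 2 of the same 2499 genes, or 0.08%, passed 2-fold, 1 in each direction (0.04% each). Of the calls, 90 higher and 173 lower genes lay above background on both arrays. Differences of at least 4-fold were seen in 18 higher and 26 lower genes of that kind, and of at least 8-fold in 5 and 5. Most genes differed little, with 64.6% of them within 0.5 of no difference. The threshold falls in a continuous range, with 65 genes of a size between 0.9 and 1 just outside it and 58 between 1 and 1.1 just inside.

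**Figure D1:**
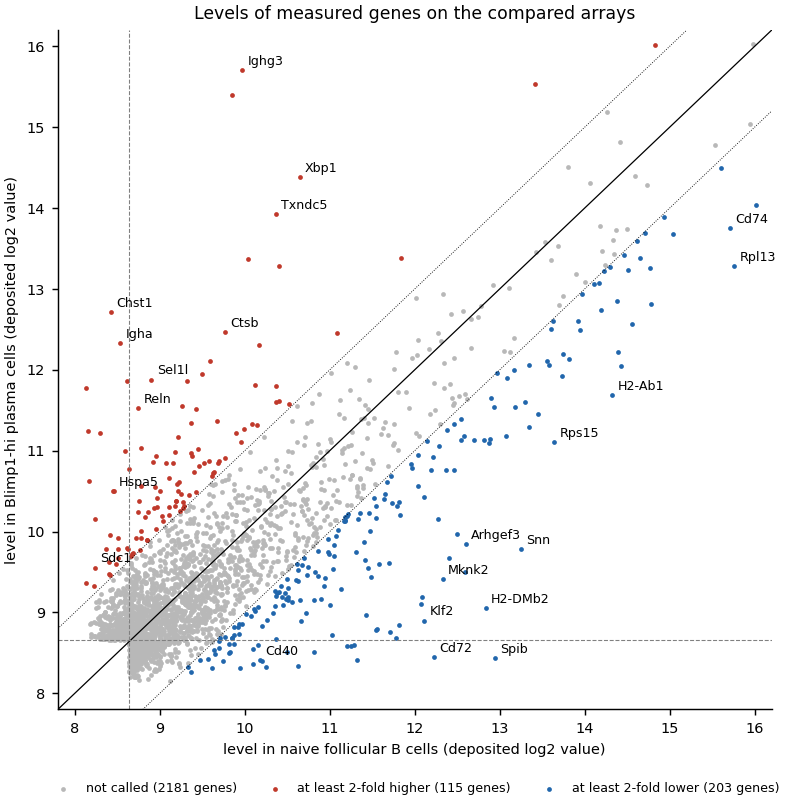
Each point is 1 of the 2499 measured genes, with its level in naive follicular B cells on the horizontal axis and in Blimp1-hi plasma cells on the vertical axis, both as deposited log2 values. Dotted lines mark 2-fold, dashed lines the background of each array; 115 genes (red) lie above the upper dotted line and 203 (blue) below the lower one, and labelled examples are described in the text.

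The split into higher and lower depends on how the arrays are scaled. All arrays were deposited with nearly the same sorted values, and immunoglobulin probes fill much of the top of the scale on the plasma cell arrays. When the values were quantile-normalized again without the 306 immunoglobulin probes, 141 genes were called higher and 5.36% of the 2499 lower, so that the share of higher genes among calls went from 36.2% to 51.3%. The difference also moved with the level. Among genes with a mean level under 9, 5 of 1088 were called higher and 5 lower, with a median of -0.03. Among the 55 genes at 13 or above, 2 were called higher and 28 lower, with a median of -1.0. After renormalization without immunoglobulin probes, that brightest class held 54 genes, of which 3 were higher and 7 lower, with a median of -0.39. Values below are as deposited, and the other scaling is given where it ended a call or moved a difference by over 1.5 times. It left most lower values of bright genes smaller in size, such as Rpl13 (-2.48 and -1.83), Actb (-1.69 and -1.16) and Tkt (-1.62 and -1.22). It added 26 higher calls and no lower one, among them genes given below as short of 2-fold: Srp14 (1.11), Stat3 (1.06), Aars (1.08), Klf6 (1.03) and H2ac10 (1.28).

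**Figure D2:**
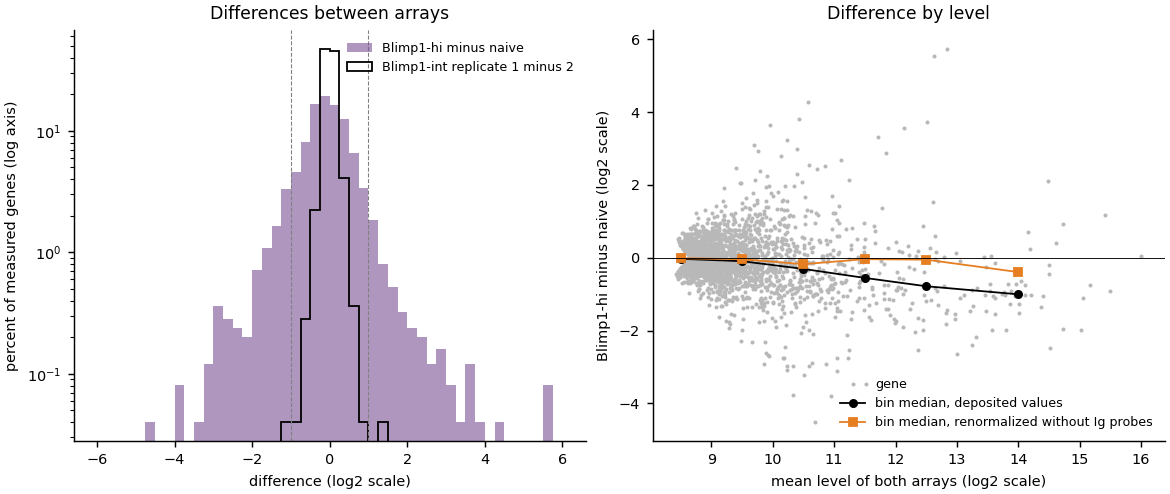
Left, the percent of measured genes (log axis) in each class of difference (log2 scale) for Blimp1-hi minus naive (filled) and for Blimp1-int replicate 1 minus 2 (outline), with 2-fold dashed; the SD is 0.75 and 0.14. Right, the difference of each gene against its mean level on both arrays, with medians per level class as deposited (black, down to -1.0 in the brightest class) and after renormalization without immunoglobulin probes (orange, -0.39 there).

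Antibody genes had the largest differences among named genes above background on both arrays. Of 10 measured constant region and J chain genes, 7 passed 2-fold upward (70%, against 4.6% of all measured genes) and none downward. Igha, Ighg1 and Jchain counted as measured through Blimp1-hi alone and could not be called lower. The median difference was 2.61 against -0.10 over all measured genes. Ighg3, the heavy chain constant region of an IgG subclass, had a level of 9.97 on the naive array, 15.71 on Blimp1-hi, and 15.87 and 15.71 on Blimp1-int. Ighg2c, of another IgG subclass, had 9.85 on the naive array, 15.40 on Blimp1-hi, and 15.76 and 15.73 on Blimp1-int. The plasma cell arrays lay together near the top of the scale, at least 5.55 above the naive array, and sequences of these subclasses are similar enough for a probe to bind more than 1 of them. Igha, the constant region of IgA, was below background in naive cells (8.53) and reached 12.33 in Blimp1-hi, at least 12.94-fold higher, against 10.41 and 10.88 on the Blimp1-int arrays. Ighg1 was at least 8.79-fold higher (8.14 naive, 11.77 Blimp1-hi). Jchain, whose product joins IgM and IgA into polymers, was at least 6.11-fold higher, at 8.15 on the naive array, 11.25 on Blimp1-hi, and 10.73 and 10.54 on Blimp1-int. The IgM constant region Ighm was already at 14.83 in naive cells, which carry IgM as receptor, and reached 16.01 in Blimp1-hi, near the ceiling, a difference of 1.19, while its other probe differed by 2.10. Igkc was at 15.98 and 16.03, at the ceiling of the scale of 16.03, where a difference is compressed, and its other probe differed by 0.98, short of 2-fold. Among lambda constant regions, Iglc1 was higher (13.42 and 15.54), while Iglc2 (14.27 and 15.19) and Iglc3 (13.81 and 14.51) did not reach 2-fold.

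Variable segments, the parts of antibody genes that bind antigen, were also higher. Of 136 heavy chain segment probes, 93 exceeded background on either array, with 76 called higher and none lower. Of 145 kappa segment probes, 101 exceeded it, with 92 called higher and none lower. Among all 8583 probes above background on either array, 6.66% were higher, 6.85% lower and 13.5% either way. On the naive array 6 heavy chain and 70 kappa probes exceeded background. A probe above background on Blimp1-hi alone could not be called lower. The lack of lower calls, for heavy chain probes above all, thus largely follows from the filter. Of the 76 heavy chain probes 71 were below background in naive cells, and 4 of the 76 had a bound under 2-fold. The families differed in how many of their probes were called. The 8 probes of Ighv family 8 had a median of 8.32 on the naive array, 12.06 on Blimp1-hi, and 10.89 and 10.63 on Blimp1-int, and 7 of them were higher. Ighv family 5 had 20 of 25 probes higher (median 8.39 naive, 10.85 Blimp1-hi). In the largest family, Ighv 1, 34 of 70 were higher and the medians were 8.34 and 9.08. The 30 probes of Igkv family 4 had medians of 8.75 and 12.61, with 24 higher, and all 5 of Igkv family 5 were higher (9.62 and 13.94). Igkv family 13 had 2 of 17 probes higher and medians of 8.33 and 8.35, under background on both arrays. The medians of Igkv families 2, 11 and 15 also lay under background on both arrays. The single probe of Ighv family 12 was at 8.60 in naive cells and at 13.99 in Blimp1-hi. Levels of different probes are not compared with each other. Segments within a family share sequence, so that a probe can bind several of them, and the pooled animals do not allow a count of clones.

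**Figure D3:**
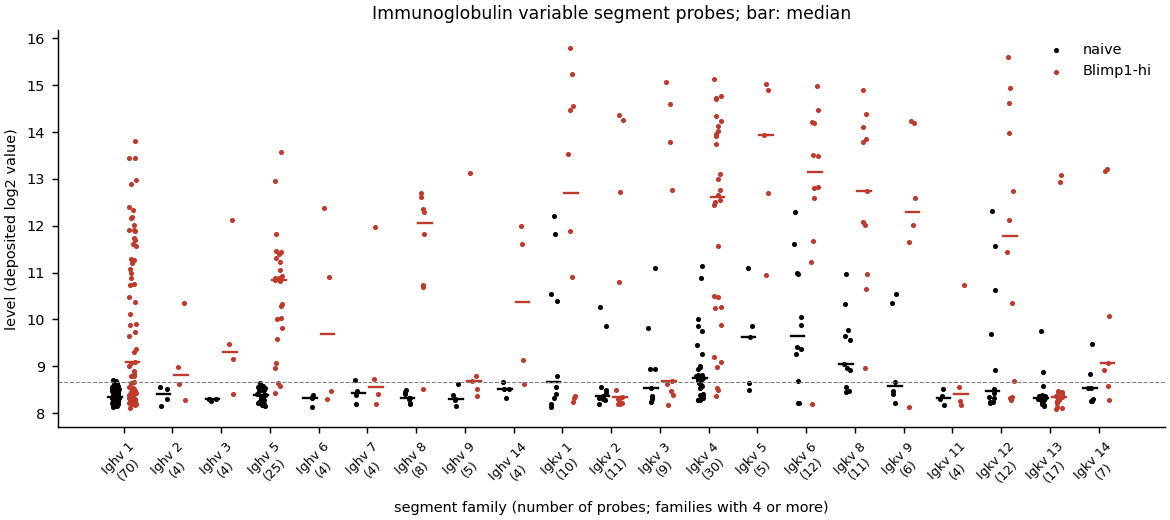
Each point is 1 probe for an immunoglobulin variable segment, by family, with its deposited log2 level on the naive (black) and the Blimp1-hi array (red); bars are medians and the dashed line is the Blimp1-hi background of 8.66. Families with at least 4 probes are shown, and most naive points lie near the background while Blimp1-hi points spread up to 15.79.

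Called genes of the secretory pathway were all higher, and their share differed between its steps. Of 66 measured members of 4 lists (ER targeting, ER folding and quality control, N-glycosylation, and coats with Golgi), 18 were called higher and none lower, 27.3% against the 4.6% of all measured genes, with a median difference of 0.54 against -0.10. Members below background on the naive array, Hspa5 and Tmed10 among them, could not be called lower. Of 14 genes for targeting to and passage into the ER, 6 were higher. Ssr4, a subunit of the translocon-associated complex, stood at 10.40 on the naive array, 13.29 on Blimp1-hi, and 13.93 and 13.68 on Blimp1-int, 7.39-fold higher in Blimp1-hi. Srpr, the receptor that docks the signal recognition particle at the ER, was 3.21-fold higher (9.68 naive, 11.36 Blimp1-hi). The channel subunits Sec61g (10.12 and 11.81) and Sec61b (10.14 and 11.32), the translocation helper Tram1 (9.53 and 10.85) and Sec63 (9.70 and 10.88) made up the rest. The signal recognition particle subunits Srp14 (0.98) and Srp9 (0.81) were just short of 2-fold, and a further probe of Sec61b was not called.

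In the ER itself, 7 of 14 genes of folding, the unfolded protein response and ER-associated degradation were higher and none lower. Txndc5, a disulfide isomerase, stood at 10.36 on the naive array, 13.93 on Blimp1-hi, and 13.43 and 13.92 on Blimp1-int, 11.8-fold higher in Blimp1-hi. Edem2, which trims sugars from misfolded glycoproteins, stood at 10.04 on the naive array, 13.37 on Blimp1-hi, and 13.81 and 13.99 on Blimp1-int. Sel1l, the scaffold of the ubiquitin ligase that removes such proteins, stood at 8.90 on the naive array, 11.88 on Blimp1-hi, and 11.50 and 11.56 on Blimp1-int. For each of these the plasma cell arrays lay close together and well above the naive value. Fkbp2, an ER prolyl isomerase, was 4.89-fold higher (9.26 and 11.55), Selenok, an ER selenoprotein, 3.95-fold (9.36 and 11.34), and Vcp, the ATPase that pulls proteins out of the ER membrane, higher by 1.38. Hspa5, the ER chaperone BiP, was below background in naive cells (8.45) and at 10.50 in Blimp1-hi, at least 3.63-fold higher, with 10.79 and 10.47 on the Blimp1-int arrays. Ero1b, an ER oxidase of disulfide formation, was not called, at 9.56 and 9.34, nor was the co-chaperone gene Dnajb9 (0.02).

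The promoters of Hspa5 and Ero1b are shown because, of the 2053 measured genes with a promoter in the RefSeq table (GRCm38.p6), these 2 hold the full ER stress element, CCAAT followed by 9 bases and CCACG, on either strand between 250 bases before and 50 after the start. Hspa5 was called higher and Ero1b was not. Capitals mark the element, which in Ero1b reads on the opposite strand. The windows are chr2:34771840-34772139 on the plus strand for Hspa5 and chr13:12565633-12565932 on the plus strand for Ero1b.
Hspa5: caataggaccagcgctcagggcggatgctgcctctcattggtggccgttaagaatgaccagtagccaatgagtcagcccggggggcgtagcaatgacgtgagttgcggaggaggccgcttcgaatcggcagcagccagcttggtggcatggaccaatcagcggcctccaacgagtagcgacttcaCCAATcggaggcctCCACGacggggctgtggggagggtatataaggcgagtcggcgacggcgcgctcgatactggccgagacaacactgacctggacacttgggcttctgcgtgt
Ero1b: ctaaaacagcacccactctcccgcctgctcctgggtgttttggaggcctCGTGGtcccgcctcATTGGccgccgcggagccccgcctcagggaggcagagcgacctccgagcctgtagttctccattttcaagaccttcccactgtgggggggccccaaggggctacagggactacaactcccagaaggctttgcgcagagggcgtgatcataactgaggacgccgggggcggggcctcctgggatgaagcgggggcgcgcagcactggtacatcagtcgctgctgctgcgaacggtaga
The element was found in 37 of 27025 promoters in the table, or 0.137%, in 1 of 95 promoters of genes called higher and in none of 158 of genes called lower. Its part CCACG, searched alone on both strands, was in 12 of the 15 promoters of called secretory genes that have one in the table (80%). It was in 25 of 44 of the secretory genes not called (56.8%), in 64 of 95 of all genes called higher (67.4%) and in 54.5% of all measured genes. CCAAT was in 66.7% of the called and 54.5% of the uncalled secretory genes, and ACGTG, the core bound by XBP1, in 46.7% and 38.6%. A match is a string of letters and not evidence of binding.

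Sugar transfer differed less. None of 15 N-glycosylation and sugar nucleotide genes was called, with a median of 0.35. Man2b1, a lysosomal mannosidase, had 11.24 in naive cells and 11.75 in Blimp1-hi, and Dad1, a subunit of the oligosaccharyltransferase, had 11.14 and 11.01. Of 23 genes of transport coats, cargo receptors and the Golgi, 5 were higher. Tmed10, a cargo receptor of early vesicles, was at least 9.33-fold higher (8.61 naive, 11.86 Blimp1-hi, 12.05 and 11.65 on Blimp1-int). Lman1, a lectin that carries glycoproteins out of the ER, was 3.84-fold higher (8.92 and 10.86), and Gorasp2, a protein that stacks Golgi cisternae, 3.22-fold (9.16 and 10.85). Tmed2 was at 8.78 and 10.56, with a further probe that was not called, and Preb, which starts COPII coat assembly at the ER, at 9.99 and 11.27. Of 41 Rab, SNARE and tether genes, which act later in traffic, 1 was higher and 1 lower, shares close to or below those of all measured genes. The higher one was Ap3s1, an adaptor subunit (at least 2.44-fold), and the lower one Snx2, a sorting nexin of endosomes (12.49 naive, 9.97 Blimp1-hi).

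**Figure D4:**
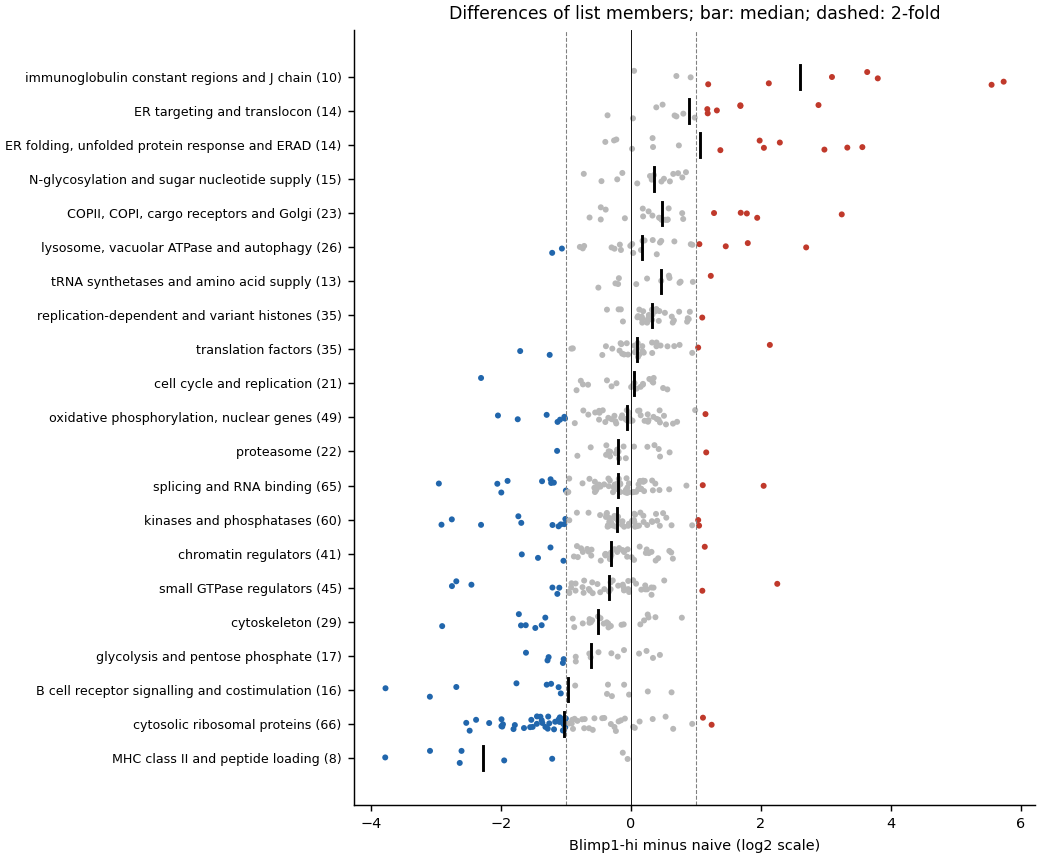
Each point is a measured member of a gene list, placed by its Blimp1-hi minus naive difference (log2 scale), red or blue where called; the bar is the list's median and the number in brackets its measured members. Medians run from 2.61 for immunoglobulin constant regions and J chain to -2.28 for MHC class II and peptide loading, while lists such as cell cycle, proteasome and oxidative phosphorylation centre near 0.

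Of 28 transcription factors of B and plasma cells, 4 were higher (14.3%, against 4.6% of all measured genes) and 5 lower (17.9%, against 8.12%). Xbp1 stood at 10.65 on the naive array, 14.39 on Blimp1-hi, and 14.81 and 14.79 on Blimp1-int, 13.4-fold higher in Blimp1-hi. Bhlha15 (Mist1), a factor of secretory cells, was at least 3.99-fold higher (8.17 naive, 10.63 Blimp1-hi, 10.88 and 10.75 on Blimp1-int). Mef2c was at 9.46 and 10.81, and Cebpb, a leucine zipper factor, at 8.97 on the naive array, 10.30 on Blimp1-hi, and 9.58 and 9.72 on Blimp1-int. Spib, an Ets factor of B cells, stood at 12.94 on the naive array and below background on all plasma cell arrays (8.43 on Blimp1-hi, 8.46 and 8.43 on Blimp1-int), at least 19.41-fold lower. Klf2, a factor of quiescent recirculating lymphocytes, had 12.11 on the naive array, 8.90 on Blimp1-hi, and 9.24 and 9.40 on Blimp1-int. Lmo2, a LIM adaptor, was 7.84-fold lower (12.07 and 9.10), Bcl11a at least 3.90-fold and Id3, an inhibitor of E proteins, at least 2.71-fold lower. Bach2 (9.41 and 8.56) and Ebf1 (9.46 and 8.65), both factors of B cell identity, lay below background in Blimp1-hi without reaching 2-fold, and Stat3 was near it in the other direction, with 1 of its 2 probes called (differences of 0.98 and 1.01).

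Other genes higher in Blimp1-hi had varied roles. Chst1, a sulfotransferase of the Golgi, went furthest from below background, at least 16.89-fold, with 8.43 on the naive array, 12.71 on Blimp1-hi, and 11.87 and 12.65 on Blimp1-int. Tent5c, a poly(A) polymerase, was at least 5.99-fold higher, and Rbm47, an RNA-binding protein, at least 3.66-fold. Reln, an extracellular glycoprotein best known from the developing brain, stood at 8.74 on the naive array, 11.53 on Blimp1-hi, and 11.33 and 11.03 on Blimp1-int. Nucb1, a calcium-binding protein of the Golgi, was 5.74-fold higher (9.59 and 12.11), and Srgn, the core protein of a granule proteoglycan, 3.93-fold (8.95 and 10.93). Ccpg1, a receptor for the turnover of ER by autophagy, was 4.25-fold higher (9.43 and 11.52), and Tmem214, a membrane protein of the ER, 3.89-fold (9.21 and 11.17). Rhob, a small GTPase of endosomes, was 4.76-fold higher (8.78 and 11.03) and Rgs10, which shortens G protein signals, 3.10-fold (8.75 and 10.38). Mtdh was at 9.32 and 11.86, Pqlc3 at 8.64 and 10.77 (1.31 as the mean of its 2 probes), Tceal9 at 9.08 and 10.85, and the chloride channel family member Clic4 at 8.95 and 10.55 (0.86 as the mean of its 2 probes, under 2-fold). Pls1, an actin-bundling plastin, was at least 2.86-fold higher, with 8.24 on the naive array, 10.15 on Blimp1-hi, and 9.07 and 9.13 on Blimp1-int, so that the Blimp1-int levels lay between.

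Of 26 lysosome, vacuolar ATPase and autophagy genes, 4 were higher (15.4%, against 4.6% of all measured genes) and 2 lower (7.69%, near the 8.12% of all). The protease Ctsb stood at 9.77 on the naive array, 12.46 on Blimp1-hi, and 12.46 and 12.35 on Blimp1-int. Glb1, lysosomal beta-galactosidase, was 3.48-fold higher (9.18 and 10.98), the autophagosome gene Map1lc3b 2.75-fold (8.96 and 10.42), and Ppt1, a thioesterase, 2.07-fold (8.85 and 9.90), a call that ended under a common 75th percentile. Ifi30, a thiol reductase that prepares antigen for MHC class II, was at least 2.23-fold lower, and Atg16l2 was 2.09-fold lower, a call that ended without the immunoglobulin probes. Of 19 redox genes, 4 were higher (21.1%, against 4.6% of all) and 1 lower (5.26%, against 8.12%). The largest difference in that list, 3.56, was that of Txndc5, already counted above among ER folding genes. Mt1, a metal-binding metallothionein, was at least 5.11-fold higher (8.59 naive, 10.99 Blimp1-hi, 10.44 and 10.50 on Blimp1-int). The ferritin chains, which store iron, went in opposite directions. Ftl1, the light chain, stood at 11.84 on the naive array, 13.38 on Blimp1-hi, and 13.82 and 13.73 on Blimp1-int. Fth1, the heavy chain, stood at 12.04 on the naive array, 10.56 on Blimp1-hi, and 9.59 and 9.62 on Blimp1-int.

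**Figure D5:**
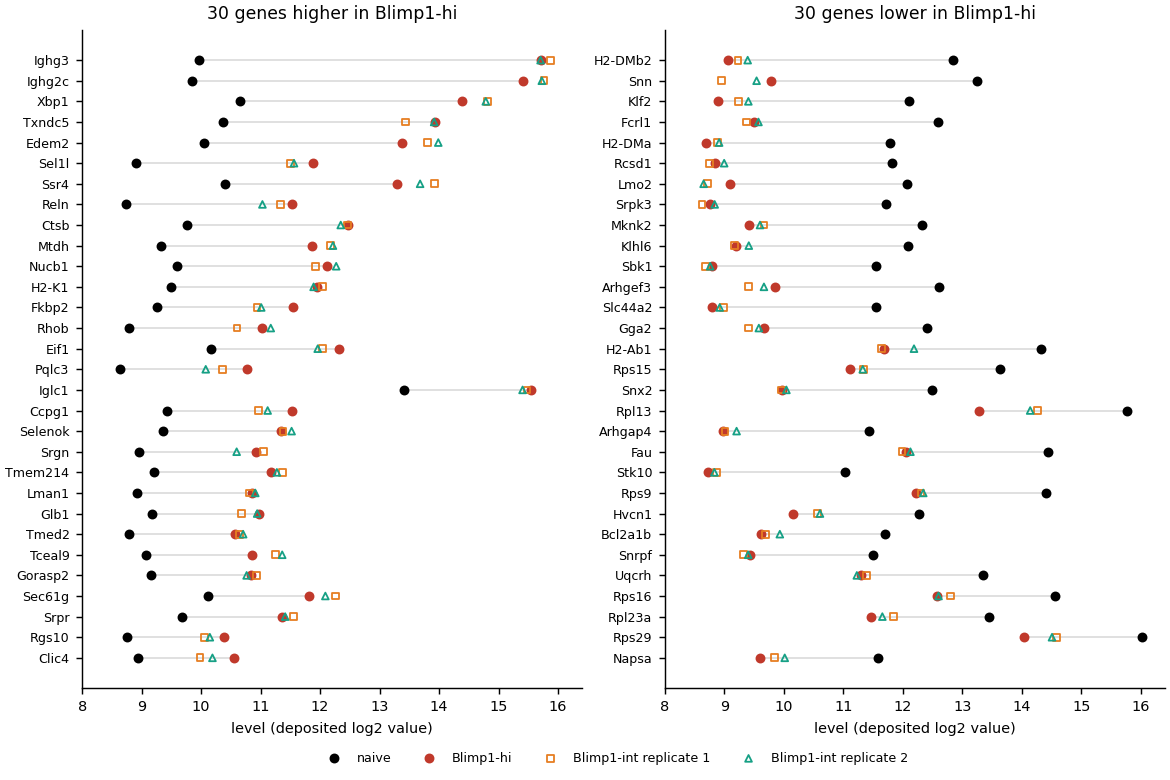
For each direction, the 30 called genes above background on both compared arrays that differed most, with the deposited log2 level on the naive array (black), on Blimp1-hi (red) and on the Blimp1-int replicates (open). For each gene shown the Blimp1-int levels lie nearer to Blimp1-hi than to naive, as for Xbp1 at 14.81 and 14.79 beside 14.39.

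The genes of antigen display on MHC class II formed the list with the lowest median. Of 8 measured members 6 were lower and none higher, with a median of -2.28, or -1.65 over the same 8 members without the immunoglobulin probes, against 8.12% lower among all measured genes. H2-DMb2, a chain of the chaperone that loads peptide, stood at 12.84 on the naive array, 9.05 on Blimp1-hi, and 9.23 and 9.39 on Blimp1-int, 13.8-fold lower in Blimp1-hi. H2-DMa, its partner chain, had 11.78 on the naive array, 8.68 on Blimp1-hi, and 8.89 and 8.91 on Blimp1-int. H2-Ab1, a chain of the I-A molecule itself, stayed well above background at 11.69 in Blimp1-hi, from 14.32 in naive cells. Cd74, the invariant chain, remained among the bright genes, at 15.71 on the naive array, 13.76 on Blimp1-hi, and 13.64 and 14.32 on Blimp1-int. Its difference of -1.95 was -1.12 without the immunoglobulin probes. Class I genes had no common direction, with 1 higher and 1 lower of 10 (10% each, against 4.6% and 8.12% of all measured genes). H2-K1 was 5.47-fold higher (9.49 and 11.94), H2-Q2 2.72-fold lower (13.56 and 12.11, a call that ended at -0.89 without the immunoglobulin probes), and B2m, the shared light chain, was not called (14.41 and 14.81) but passed 2-fold, at 1.05, without the immunoglobulin probes. Class I genes are similar in sequence, so that these probes may bind more than 1 of them.

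Of 16 genes of B cell receptor signalling and costimulation, 8 were lower (50%, against 8.12% of all measured genes) and none higher. The median was -0.97, and without the immunoglobulin probes 6 were lower with a median of -0.79. Cd72, an inhibitory coreceptor, stood at 12.22 on the naive array and below background on the plasma cell arrays (8.44 on Blimp1-hi, 8.65 and 8.63 on Blimp1-int), at least 11.79-fold lower. Fcrl1, an Fc receptor homologue of B cells, had 12.59 on the naive array, 9.49 on Blimp1-hi, and 9.37 and 9.57 on Blimp1-int. Rasgrp1, which passes receptor signals to Ras, was at least 6.17-fold lower, Cd40, the receptor for T cell help, at least 2.85-fold, and the low-affinity IgE receptor Fcer2a at least 1.94-fold, with another Fcer2a probe not called. Csk, a kinase that restrains Src family kinases, was 2.34-fold lower (10.98 and 9.75). Prkcb and Swap70 had differences of -1.08 and -1.11, calls that ended without the immunoglobulin probes. Of 19 CD antigen and adhesion genes, Cd53, a tetraspanin, was 2.46-fold higher (9.58 and 10.88) beside Sdc1, and those lower were Cd72, Cd74 and Cd40. These shares were 10.5% higher and 15.8% lower, against 4.6% and 8.12% of all measured genes.

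Promoters of Cd72 and Bcl2a1b are shown because they hold the string AGAGGAAGT, a form of the site that Spi-B and PU.1 bind. Both were picked from the genes called lower. The string, in capitals, lies on the opposite strand in Cd72, whose window is chr4:43454577-43454876 on the minus strand, and on the gene's strand in Bcl2a1b, at chr9:89199023-89199322 on the plus strand.
Cd72: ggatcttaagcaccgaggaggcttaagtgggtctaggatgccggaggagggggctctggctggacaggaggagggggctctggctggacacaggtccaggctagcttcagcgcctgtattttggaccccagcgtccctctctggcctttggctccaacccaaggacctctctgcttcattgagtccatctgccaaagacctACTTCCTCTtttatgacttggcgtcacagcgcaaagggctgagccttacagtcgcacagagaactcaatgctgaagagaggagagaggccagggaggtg
Bcl2a1b: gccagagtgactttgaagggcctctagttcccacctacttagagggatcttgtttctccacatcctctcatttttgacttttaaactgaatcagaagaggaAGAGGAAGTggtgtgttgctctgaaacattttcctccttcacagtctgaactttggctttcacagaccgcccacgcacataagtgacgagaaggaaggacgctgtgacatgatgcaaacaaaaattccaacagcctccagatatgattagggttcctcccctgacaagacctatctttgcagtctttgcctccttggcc
On both strands the string was in 4 of 158 promoters of genes called lower (2.53%), in none of 95 of genes called higher, in 17 of 2053 of all measured genes (0.828%) and in 1.18% of all promoters in the table. The other lower genes with it were Bcl2a1d, a near copy of Bcl2a1b, and Calhm2 (10.93 and 9.32). Here too a match is not evidence of binding, and a link to the lower level of Spib was not tested.

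Survival genes of the BCL-2 family and caspases had 2 of 11 members lower and none higher, against 8.12% lower and 4.6% higher of all measured genes, and both are near-identical A1 copies. Bcl2a1b, of the anti-apoptotic A1 genes, stood at 11.70 on the naive array, 9.62 on Blimp1-hi, and 9.69 and 9.93 on Blimp1-int, 4.24-fold lower in Blimp1-hi. Bcl2a1d had 10.81 on the naive array, 9.16 on Blimp1-hi, and 9.22 and 9.47 on Blimp1-int, and Bcl2a1a lay near background (8.77 and 8.64). These genes are near-identical copies, so that their probes may not be separate. Bcl2 itself was not called, at 8.90 on the naive array, 9.29 on Blimp1-hi, and 8.50 and 8.64 on Blimp1-int. Bcl2l2 (8.82 and 9.45) and the inhibitor of apoptosis Birc2 (8.45 and 8.93) were not called, nor were Casp2 (10.97 and 10.19) and Casp8 (9.96 and 9.35).

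Of 60 kinase and phosphatase genes 10 were lower (16.7%, against 8.12% of all measured genes) and 2 higher (3.33% against 4.6%), with a median of -0.22. Without the immunoglobulin probes 6 were lower. Mknk2, a kinase of the cap-binding factor of translation, stood at 12.33 on the naive array, 9.41 on Blimp1-hi, and 9.67 and 9.60 on Blimp1-int. Sbk1, a serine/threonine kinase, was 6.76-fold lower (11.54 and 8.79) and Stk10, a lymphocyte kinase that acts on ERM proteins, 4.95-fold (11.03 and 8.72). Cdk19 of the Mediator kinase module (10.89 and 9.16) and the p38 family kinase Mapk11 (10.37 and 8.68) were lower as well. The higher genes were the phosphatase Ptpn1 (8.69 and 9.74) and the phosphatase subunit Ppp4r3b (8.67 and 9.70), calls that ended under a common 75th percentile.

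Of 45 genes collected as regulators of small GTPases, 6 were lower (13.3%, against 8.12% of all measured genes) and 2 higher (4.44%, near the 4.6% of all). Arhgef3, an exchange factor of small GTPases, stood at 12.60 on the naive array, 9.84 on Blimp1-hi, and 9.41 and 9.66 on Blimp1-int. Arhgap4, a GTPase-activating protein, was 5.49-fold lower (11.43 and 8.97), and Gimap7, a lymphocyte GTPase, 2.31-fold (10.61 and 9.40). Raly, also in that list by its name, encodes an RNA-binding protein and not a Ras regulator (10.63 and 9.53), and its call ended without the immunoglobulin probes. Outside the list, Ripor2, an inhibitor of RhoA, was at least 6.02-fold lower, Plekhg2, another exchange factor, at least 2.91-fold, and Sipa1, which switches off Rap1, at least 2.81-fold. Of 29 cytoskeleton genes 7 were lower (24.1%, against 8.12% of all measured genes) and none higher, with a median of -0.51. Actb, beta-actin, was at 13.82 and 12.13, with a further probe not called. Pfn1, which feeds actin monomers into filaments, was 3.31-fold lower (10.72 and 9.0), the Arp2/3 subunits Arpc1b 3.07-fold (11.82 and 10.20) and Arpc3 2.78-fold (11.79 and 10.31), and Ezr, which ties actin to the membrane, 2.59-fold (11.73 and 10.36). Cnn3, an actin-binding calponin, was at least 6.29-fold lower and below background on all plasma cell arrays (11.32 on the naive array, 8.41 on Blimp1-hi, 8.3 and 8.40 on Blimp1-int). Cotl1, a coactosin, was at least 3.01-fold lower.

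Further genes were among the 30 with the largest negative differences. Snn, stannin, stood at 13.25 on the naive array, 9.79 on Blimp1-hi, and 8.95 and 9.54 on Blimp1-int. Rcsd1, which binds actin-capping protein, was at 11.82 and 8.85, and Klhl6, a ubiquitin ligase adaptor of B cells, at 12.08 and 9.19. Gga2, an adaptor between Golgi and endosomes, was 6.68-fold lower (12.41 and 9.67), and Slc44a2, a choline transporter-like protein, 6.75-fold (11.55 and 8.8, and -1.49 as the mean of its 2 probes). Hvcn1, the proton channel of B cells, was 4.37-fold lower (12.28 on the naive array, 10.15 on Blimp1-hi, 10.57 and 10.61 on Blimp1-int), and Napsa, an aspartic protease, 3.94-fold (11.58 and 9.60). Among splicing and RNA-binding genes, 9 of 65 were lower (13.8%, against 8.12% of all measured genes) and 2 higher, and without the immunoglobulin probes 5 were lower. Srpk3, a kinase of splicing factors, was 7.77-fold lower (11.71 and 8.75), the core spliceosome proteins Snrpf 4.16-fold (11.49 and 9.43) and Snrpg 3.73-fold (13.08 and 11.18), and Rbm38 at least 3.58-fold. Of 41 chromatin regulators 4 were lower (9.76%, near the 8.12% of all measured genes) and 1 higher, and without the immunoglobulin probes 2 were lower. Hmgn1, a nucleosome-binding protein, was at 12.81 and 11.13, the deacetylase Sirt7 at 12.20 and 10.76, and Kmt2e at 8.78 and 9.92.

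Ribosomal protein and energy genes, which are bright, were the lists most touched by scaling. Of 66 cytosolic ribosomal protein genes, 37 were lower (56.1%) and 2 higher (3.03%) as deposited, with a median of -1.02. Without the immunoglobulin probes 14 were lower and the median was -0.42, and with cyclic loess the median was -1.47. Rps15 stood at 13.64 on the naive array, 11.10 on Blimp1-hi, and 11.34 and 11.33 on Blimp1-int, and Rpl13 at 15.76 on the naive array, 13.28 on Blimp1-hi, and 14.26 and 14.14 on Blimp1-int. Rpl6 (10.08 and 11.33) and Rps6 (9.34 and 10.45) went the other way. Rps9 was lower by its brighter probe (14.40 and 12.22) and not by its dimmer one. Beside these, the 3 probes of 18S ribosomal RNA above background were higher by 2.62 to 3.92, and their part in the ribosomal protein values was not tested. Of 35 translation factors 2 were higher and 2 lower, 5.71% each, against 4.6% higher and 8.12% lower of all measured genes. Without the immunoglobulin probes 3 were higher and 1 lower. Eif1, which helps select start codons, stood at 10.17 on the naive array, 12.31 on Blimp1-hi, and 12.05 and 11.96 on Blimp1-int. Eef2, the elongation factor, was lower by its brighter probe (13.30 and 11.60) and not by the other, with a mean of -0.75.

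Of 49 nuclear genes of oxidative phosphorylation, 7 were lower (14.3%, against 8.12% of all measured genes) and 1 higher (2.04%, against 4.6%). The median was -0.06. Without the immunoglobulin probes 2 were lower and the median was 0.04. Uqcrh, of complex III, was 4.13-fold lower (13.35 and 11.30), and Atp5l, of the ATP synthase, 3.35-fold (12.88 and 11.14). Of 17 glycolysis and pentose phosphate genes 5 were lower (29.4%) and none higher, and without the immunoglobulin probes 2 were lower. Tkt, transketolase, had 12.37 on the naive array, 10.76 on Blimp1-hi, and 11.35 and 11.45 on Blimp1-int. Ldha, lactate dehydrogenase, was 2.41-fold lower, with 9.73 on Blimp1-hi and 10.59 and 10.41 on Blimp1-int. The Blimp1-int levels of Ldha lay nearer to naive. The calls of Gapdh, Taldo1 and Eno1 ended without the immunoglobulin probes.

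Most of the programs that follow lay near or below the shares of all measured genes, 4.6% higher and 8.12% lower. Of 21 cell cycle and replication genes 1 was lower, Pold4, a polymerase delta subunit (at least 4.46-fold), and none higher, with a median of 0.05. Birc5 (survivin), a gene of dividing cells, had 8.67 on the naive array, 8.72 on Blimp1-hi, and 9.56 and 9.45 on Blimp1-int. Of 35 histone genes 1 was higher, H3c10 (9.27 and 10.37). H2ac10 was not called between the compared arrays (11.21 naive, 12.08 Blimp1-hi), with 14.02 and 13.52 on Blimp1-int, and histone copies are too similar for a probe to be assigned to 1 of them. The proteasome had 1 of 22 higher (Psmd1, 9.69 and 10.85) and 1 lower (Psme1, a call that ended without the immunoglobulin probes). Ubiquitin genes had 2 of 57 each way, the higher being the ligase genes Fbxw7 (8.83 and 10.18) and Rnf6 (9.04 and 10.14). Both lower ubiquitin calls ended without the immunoglobulin probes. Of 66 zinc finger genes 1 was higher and 2 lower, or 1 lower without the immunoglobulin probes. Of 31 mitochondrial ribosomal protein genes 1 was higher (Mrpl20, 2.83-fold) and 1 lower (Mrps16, 10.51 and 9.15). None of 13 cholesterol and lipid synthesis genes was called (median 0.03, Acly 11.40 and 10.58), nor any of 5 cell cycle inhibitor and p53 target genes or 5 immediate early genes, of which Klf6 (9.31 and 10.26) came closest to 2-fold. Of 13 tRNA synthetase and amino acid genes 1 was higher (7.69%), the glycine transporter Slc6a9 (at least 1.99-fold), with the synthetase Aars at 9.63 and 10.58. Of 63 genes collected as other carriers, channels and pumps, 5 were higher (7.94%, above the 4.6% of all measured genes) and 3 lower (4.76%). Among them were the zinc transporter family member Slc39a11 (8.73 and 9.93) and the calcium release channel Itpr3 (10.07 and 8.96). The most positive difference in that list, 1.96, was that of Tmem214, given above as a membrane protein of the ER.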

How the data were processed

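RNA of sorted spleen cells was extracted with Trizol and a column with DNase, amplified with a MessageAmp kit and hybridised to 1-colour Illumina arrays, per the labels' protocols. The authors deposited 1 log2 value per probe and array, made with lumi, an R package, according to the submitters' processing notes; its version, the transform and the background step are not given in the sources used here. If the scale is variance-stabilized, folds of dim genes are understated. The arrays share a median of 8.36 and a maximum of 16.03. Another deposited table of raw signals holds 8 value columns whose names match no sample, and none was used. The detection p-values among them were therefore not used either, and background came from 45 foreign probes. Between 6322 and 7128 of 46120 probes exceeded it per array. The number of arrays limits the precision.

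Probe names carry no symbols. The 5- and 6-digit numbers in 11897 of them were read as NCBI gene numbers and matched to RefSeq genes (GRCm38.p6, names only). Of these 9832 matched. The share that matched was 84.3% for 5 digits and 79.7% for 6 digits, and 50.9% and 23.8% once 7 was added to each number. Further probes were named by accession (9) or constant region (8). In all 9826 probes had 1 symbol, for 8114 genes, and 36294 had none here. A gene took its probe with the highest mean. Prdm1 and other genes with no named probe are not analysed here. A few genes that the naming rule or lists hold are not reported here.

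Differences, calls and medians were computed in Python 3.11.15 with pandas 2.3.3, and cyclic loess in limma 3.58.1. The call rule alone was tested on simulated data, with the spread of the Blimp1-int pair and bright genes shifted past 2-fold. Scaling, bounds and shifts of dim genes were not simulated. No p-value was computed. Named genes were, per direction, the 30 called genes above background on both arrays that differed most and the 15 with the largest bound, up to 6 called members per direction of each list (up to 2 by level where none was called), the sort markers and the BCL-2 family. Genes named just short of 2-fold, Calhm2, H2ac10, Igkc, B2m, Vcp, Prkcb and Swap70, and the variable segment families, were picked with their values in view. The members and lists were chosen with earlier results of these data known. Promoter sequences are from RefSeq. Alternatives covered the background cutoff, the probe of a gene, the scaling and the threshold.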

Additional observations from a re-analysis of the deposited data

Results flagged for a closer look

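No group holds 4 or more arrays, so no array was tested for standing apart from its group. The values here come from probes outside the comparisons of named genes. The probe for the neomycin resistance gene NeoR differed by 2.80 between the compared arrays (8.40 on naive, 11.20 on Blimp1-hi) and stood at 11.27 on one Blimp1-int array. It was below background on the naive array, so that it was at least 5.91-fold higher. The genotype label names the same reporter for all arrays. Of the probes with no gene symbol here and no class, 271 were higher in Blimp1-hi by at least 2-fold and 375 lower, of 5696 above background on either array. Both shares lay below those of all 8583 probes above background, 6.66% higher and 6.85% lower. The probe with the largest difference among those without symbol and class, scl0002365.1_226-S, was 6.22 higher (9.63 and 15.84), with 16.01 on both Blimp1-int arrays. What it measures is not known here.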

How the results depend on the processing

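No paired analysis was possible because each side of the comparison is 1 array and the labels give no shared replicate numbers. At 1.5-fold 300 genes were higher and 17.8% of the 2499 measured were lower, and at 4-fold 28 and 1.36%; between the Blimp1-int arrays 12 genes passed 1.5-fold. Quantile normalization without immunoglobulin probes left 5.36% of the 2499 lower, all of them among the 203, and ribosomal protein genes lower numbered 14, oxidative phosphorylation 2, glycolysis and pentose phosphate 2, splicing 5 and kinases 6. All 115 higher genes stayed called higher under it. Of 169 named calls it ended 18. The 75th percentile shift ended 4 and gave 103 higher and 223 lower, and cyclic loess gave 117 and 229. With the dimmest probe above background of each gene, 2 named genes turned direction, Eef2 to 0.21 and Rps9 to 0.18. A further 11 of the 169 named calls ended, and 105 genes were higher and 193 lower. Neither background at the mean plus 2 SD nor no filter on dim probes changed the 115 and 203 calls. Genes that these settings add lie below the main background on both arrays, a narrow range where a 2-fold difference is hardly possible. The unchanged counts are therefore no check of the calls. Genes near background have bounds only, and levels near 16.03 are compressed.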
